A study of Mus musculus with 18 samples.

Results

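RNA-seq profiles of 5 P/Rbf mammary tumors were compared with those of 3 normal mammary glands, chosen by the sample titles from the 18 samples of the series. Each sample came from a different mouse. P/Rbf tumors arose in Trp53 fl/fl, TgK18GT121 Tg/+ females after an adenovirus carrying Cre was injected through the nipple into the ducts of the adult gland. Cre deleted Trp53 and switched on T121, an N-terminal fragment of SV40 large T antigen that binds and inactivates pRb and its relatives p107 and p130. T121 stood under the keratin 18 promoter, so that it was meant for epithelial cells. Brca1 was intact in these mice, and the tumors were taken when they reached a size limit. The alleles of the tumor mice were on a C57Bl/6 J background, and the glands came from wild type C57Bl/6 females. The age and reproductive state of the gland donors, whether their ducts were injected and whether the lymph node was removed are not given in the sources used here. Tumor state, genotype, virus and age therefore cannot be told apart in this comparison. The other samples were 5 tumors with Brca1, Trp53 and pRb family loss (B1/P/Rbf) and 5 with Brca1 and Trp53 loss (B1/P). They entered the same fit and were used to show where P/Rbf tumors differ from other tumors. By the study's RT-qPCR, Brca1 expression was lost only in part in B1/P/Rbf tumor 208863.

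A resting mammary gland is a thin tree of luminal and basal epithelium inside a fat pad, with vessels, nerves, a lymph node and strips of body wall muscle close by. A tumor is mostly epithelial, so a comparison of whole tissues mixes changes inside epithelial cells with a change in which cells are there. The pRb family holds back E2F, the factor that turns on genes for DNA synthesis, and with MuvB proteins it keeps the genes of mitosis silent in resting cells, many of which carry a CHR element in the promoter. p53 turns on genes that halt the cycle or kill the cell. To separate epithelial and proliferative changes from the loss of fat and muscle, each gene was tested on 2 scales. The first was counts scaled to library size with TMM factors (CPM below), which treats the sample as a whole. The second set each library to the summed counts of 14 epithelial genes for adhesion, junctions, proteases and epithelial transcription factors (Epcam, Cdh1, Cldn3, Cldn4, Cldn7, Spint1, Spint2, St14, Esrp1, Grhl2, Rab25, Ap1m2, Prss8 and Marveld2, called the epithelial panel). It asks whether a gene moved by more or by less than epithelial RNA did in the same sample. Keratins 8 and 18 were left out of the panel because of the transgene's promoter.

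The P/Rbf libraries held 29201325 to 37794889 estimated counts and the gland libraries 30831714 to 37516292, over 55450 annotated genes. Mitochondrial genes took 6.97 to 7.72% of the counts in the glands and 1.16 to 3.75% in the P/Rbf tumors, and the 10 most abundant genes took 12.6 to 13.3% and 3.55 to 5.87%. The TMM factors were 0.788 to 0.858 in the glands and 0.952 to 1.046 in the tumors. These differences run along the same line as the comparison, and their part in the results was not tested. Values per sample are given below in CPM, for tumors 287842, 287845, 290860, 287822 and 290845 and then for glands 330154, 330155 and 330156, in that order. Adjusted p-values come from edgeR's quasi-likelihood test over the 19186 genes that passed a filter on low counts, and a gene with an adjusted p of at most 0.05 is said to have risen or fallen. Errors are standard errors (SE) of the log2 fold change or SD over samples.

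The genes that the model targets were looked at first. Trp53 RNA was 8.86, 11.4, 9.39, 13.8 and 10.5 CPM in the tumors against 58.2, 71.8 and 54.4 CPM in the glands. All tumors lay below all glands, with a log2 fold change of -2.51 (SE 0.36, adjusted p = 5.0e-05). The counts are summed over the whole gene, so RNA from undeleted exons and from stromal cells is included. Brca1, a DNA repair gene that was intact in these mice, was 44.9, 111, 66.5, 116 and 55.9 CPM against 5.75, 4.61 and 5.99 CPM, a rise of 3.86 (SE 0.50, adjusted p = 1.5e-05) on the log2 scale. Among the genes of the pRb family, Rbl1 (p107) rose by 2.43 (adjusted p = 1.1e-04) and Rbl2 (p130) fell by 1.68 (adjusted p = 2.4e-04). Rb1 was 17.0, 48.0, 27.4, 64.1 and 29.8 CPM against 67.8, 69.0 and 75.8 CPM, and its fall of 0.93 (adjusted p = 0.044) no longer passed the test when tumor 287842, 290860 or 290845 or any gland was left out (adjusted p up to 0.13). Relative to the epithelial panel 1 of these 5 genes rose, 3 fell and 1 did not differ by the test, beside 2.5% and 73.8% of all genes that rose and fell. T121 acts on the proteins, and its own RNA is not in the mouse annotation, so it has no value here.

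Of the 19186 genes tested, 3333 (17.4%) rose and 3897 (20.3%) fell in P/Rbf tumors against glands. In 3828 genes (20%) every tumor lay above every gland, and in 5087 (26.5%) every tumor lay below. The falls were larger than the rises. Of all 19186 genes, 1296 fell by at least 4 on the log2 scale and 345 by at least 8, against 509 and 77 that rose by as much. In 555 of the fallen genes no tumor held more than 3 counts. The 1296 genes that fell by at least 4 included 21 of 21 skeletal muscle, 20 of 20 adipocyte and 5 of 7 brown fat genes. They also held 10 of 10 B cell, 7 of 8 T cell and 3 of 12 lipid synthesis genes. The 509 that rose by at least 4 included 24 of 29 mitosis and 3 of 31 replication genes. At 8 or more, the falls held 20 muscle, 14 adipocyte, 3 brown fat, 5 B cell and 1 lipid synthesis genes. The rises held 0 mitosis and 0 replication genes, which says little of either list, as 77 of all 19186 genes rose so far. The split between rises and falls moved with the scaling: with library sizes alone, 4720 genes rose and 3159 fell, and the median of all genes went from 0.05 to 0.33. Without gland 330154 or 330156, the rises numbered 2217 and 2129. Relative to the epithelial panel far more genes fell than rose. On that scale 480 genes (2.5%) rose and 14162 (73.8%) fell, with a median of -2.02 over all genes, and without gland 330155 the rises numbered 319. Of the 3333 genes that rose on the CPM scale, 480 also rose relative to the panel, 1696 did not differ by the test, and 1157 fell. All 3897 genes that fell on the CPM scale fell relative to the panel as well. The panel scale moves all genes down together (median 0.05 to -2.02), so these counts of falls follow largely from the scaling.

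**Figure D1:**
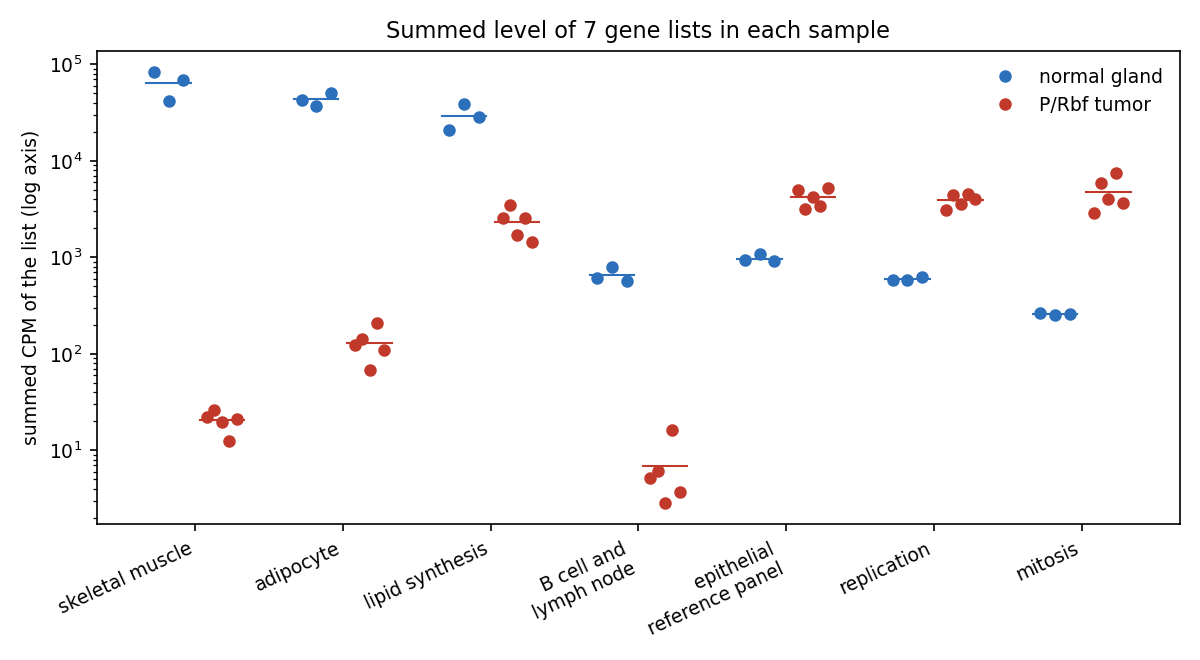
Summed CPM (log axis) of the genes of 7 lists in each P/Rbf tumor (red) and each normal gland (blue), 1 point per sample, with lines at the group means. In every list the 2 groups lie apart: the tumors are below for muscle, adipocyte, lipid synthesis and B cell genes, and above for the epithelial panel (3164 to 5288 against 907 to 1072 CPM), replication (3064 to 4534 against 585 to 627 CPM) and mitosis (2895 to 7519 against 252 to 262 CPM).

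Skeletal muscle RNA was nearly absent from the P/Rbf tumors, where it took 0.0013 to 0.0025% of the counts against 3.54 to 6.85% in the glands. All 21 genes of the muscle list fell, against 20.3% of all genes, with a median log2 fold change of -13.72 beside 0.05 for all genes (-12.53 when genes at or under 3 counts in every tumor were set to that floor). In whole tissue, fewer cells of a type and less RNA per cell cannot be told apart. Ckm, the creatine kinase of muscle, was 0.0863, 0, 0, 0.0526 and 0.0340 CPM in the tumors and 6786, 3711 and 5855 CPM in the glands, which is at least 62240-fold lower (adjusted p = 9.6e-05). Acta1, the actin of the thin filament, was 0.0575 to 0.851 CPM in the tumors and 6269 to 12950 CPM in the glands. Mb (myoglobin) and Eno3, an enolase of muscle, were among the smaller falls of the list at 7.38 and 8.54 on the log2 scale, which are still large against the median log2 fold change of -2.79 over the genes that fell. The calls did not turn on 1 library, since all 21 genes fell with any tumor or gland left out.

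Fat genes fell together, from 3.17 to 3.97% of the counts in the glands to 0.0071 to 0.0219% in the tumors. All 20 adipocyte genes fell, against 20.3% of all genes, with a median of -10.54 (-10.22 with floors). Fabp4, the fatty acid carrier of adipocytes, was 4.80, 8.61, 5.67, 2.71 and 4.25 CPM in the tumors against 5545, 6049 and 8077 CPM in the glands, a log2 fold change of -10.30 (SE 0.95, adjusted p = 5.3e-07). Adipoq (adiponectin) was 0.374, 1.64, 0.0253, 0.0263 and 0.0340 CPM against 1728, 1343 and 2226 CPM. Tumor 287845 held the most RNA of both genes, and still lay far under the lowest gland. The 3 smallest falls of the list were in genes that other cells use too. Pparg, the master regulator of fat cells, fell by 4.81 (adjusted p = 1.2e-06), Cebpa by 4.59 (adjusted p = 1.7e-05) and Pnpla2, which starts the breakdown of stored fat, by 4.58. Cfd (adipsin) was 0 to 3.53 CPM in the tumors and 9049 to 10780 CPM in the glands.

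The lipid synthesis and fatty acid oxidation lists had smaller median falls than the adipocyte list (-10.54). That difference was not tested. In the lipid synthesis list 11 of 12 genes fell, beside 20.3% of all genes, with a median of -3.32 and a range of -10.21 to -0.31. Fasn (fatty acid synthase) was 531, 148, 388, 142 and 363 CPM in the tumors against 4688, 8876 and 5143 CPM in the glands (-4.31, SE 0.44, adjusted p = 1.4e-06). The exception was Srebf1, the transcription factor over this pathway, at 312, 240, 206, 224 and 226 CPM against 240, 332 and 325 CPM (-0.31, adjusted p = 0.44). Gland 330155 was the highest of the glands for Fasn, and without it 7 genes of the list fell, since the falls of Acly, Elovl6, Me1 and Dgat2 no longer passed the test (adjusted p 0.052 to 0.27). Fatty acid oxidation fell in 13 of 14 genes, beside 20.3% of all genes, with a median of -2.37. The muscle enzyme Cpt1b fell by 5.32 (adjusted p = 2.9e-07). Its counterpart Cpt1a, the carnitine transferase of liver and most other tissues, rose from 82.9, 73.9 and 80.9 CPM in the glands to 216, 477, 115, 350 and 118 CPM in the tumors (1.69, SE 0.42, adjusted p = 0.0045), and did not differ relative to the epithelial panel (-0.25, adjusted p = 0.64). Beside 20.3% of all genes, 5 of 7 in the brown fat list fell. Among them was Ucp1, the uncoupling protein of heat production, at 0 to 0.189 CPM against 11.1 to 163 CPM. Ppargc1a, a coactivator of mitochondrial genes, was 5.44, 231, 1.24, 138 and 1.94 CPM in the tumors against 30.02, 15.9 and 26.3 CPM. Its tumors lay on both sides of the glands, with tumors 287845 and 287822 high and the other 3 low, and it did not pass the test (adjusted p = 0.38).

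Genes of lymphocytes and red blood cells also fell in the P/Rbf tumors. All 8 T cell genes and all 10 B cell and lymph node genes fell, with medians of -4.89 and -7.79. Cd3e, part of the T cell receptor complex, was 0.177 to 2.16 CPM in the tumors against 28.9 to 44.1 CPM in the glands. All 4 globin genes fell (median -4.10), though reads of the near-identical pairs Hba-a1 and Hba-a2, and Hbb-bs and Hbb-bt, may be split between copies. Of 8 Schwann cell and nerve genes 4 fell and 1 rose, beside 20.3% and 17.4% of all genes. Ncam1, an adhesion protein of nerve and other cells, was 2.99, 401, 8.15, 33.7 and 3.40 CPM against 4.30, 3.50 and 3.72 CPM, and its rise (4.55, adjusted p = 0.035) was lost without tumor 287845 (1.65, adjusted p = 0.22) or any gland (adjusted p up to 0.10). In the endothelial list 9 of 14 genes fell and none rose, with a median of -1.54. Cldn5, a junction protein of vessels, fell by 3.60 (adjusted p = 2.2e-05) and Pecam1 by 1.69 (adjusted p = 0.0035). Of the 9 genes, 5 fell without gland 330155. Kdr and Esam lost their calls with that gland, and Cdh5 and Tie1 with tumor 287842, 290860 or 290845 or any gland left out (adjusted p up to 0.098).

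**Figure D2:**
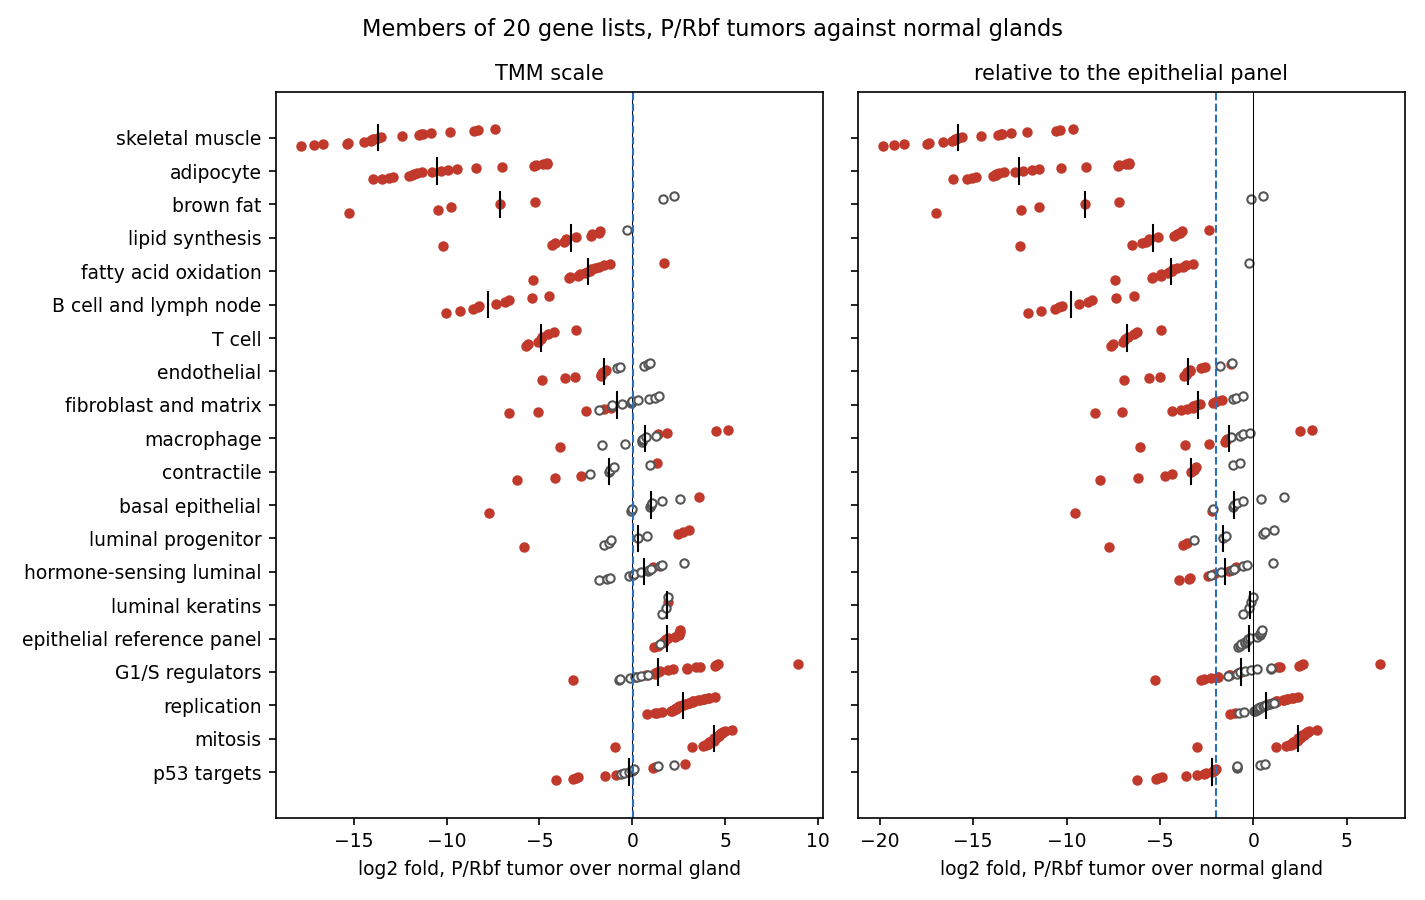
Log2 fold change of every tested list member in P/Rbf tumors against normal glands, 1 point per gene, on the TMM scale (left) and relative to the epithelial panel (right), where filled points passed edgeR's test at an adjusted p of at most 0.05, open points did not, black ticks mark list medians and the dashed line marks the median of all genes. On the left, muscle and adipocyte genes lie at the far left (medians -13.72 and -10.54), mitosis and replication genes at the right (4.39 and 2.73).

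Epithelial genes rose in the P/Rbf tumors. In the panel 13 of 14 genes rose, against 17.4% of all genes, with a median of 1.88 and a range of 1.14 to 2.55. Epcam, an adhesion protein of simple epithelia, was 1023, 895, 1115, 908 and 1111 CPM in the tumors against 199.6, 215 and 197 CPM in the glands (2.31, SE 0.40, adjusted p = 2.4e-04). Cdh1 (E-cadherin) rose by 2.54 (adjusted p = 6.4e-05) and Grhl2, a transcription factor of epithelial identity, by 2.49 (SE 0.20, adjusted p = 1.3e-07). For these genes the tumors lay close together and apart from the glands. Cldn4, a tight junction claudin, was 253, 197, 561, 262 and 651 CPM against 134, 168 and 114 CPM, and did not pass the test (1.47, adjusted p = 0.058) although no tumor overlapped a gland. The calls of Cldn7 and Prss8 were lost with any gland left out (adjusted p 0.055 to 0.12), and that of Prss8 also without tumor 287822 (adjusted p = 0.12). As the panel sets the second scale, no change of its own members is read from that scale.

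Luminal keratins were higher on average but scattered. Krt18 was 1922, 3817, 662, 2553 and 1115 CPM in the tumors against 476, 670 and 451 CPM in the glands (1.92, SE 0.52, adjusted p = 0.0077), and tumor 290860 lay within the glands. Krt8, its partner in the filament, was 3536, 2868, 1010, 1647 and 1384 CPM against 576, 669 and 539 CPM, with no overlap, but its SE of 0.84 left it short of the threshold (1.81, adjusted p = 0.099). Krt7 and Krt19 did not pass the test either (adjusted p = 0.074 and 0.34). Relative to the epithelial panel none of the 4 keratins differed, with Krt18 at -0.01 (adjusted p = 0.99). Whether the transgene adds reads to Krt18 is not given in the sources used here.

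Few genes of hormone-sensing luminal cells passed the test on the CPM scale. Of 14 such genes 1 rose and none fell, beside 17.4% and 20.3% of all genes (median 0.64, which turned to -0.26 under limma-voom with quantile normalization). Relative to the epithelial panel 7 of 14 fell and none rose, beside 73.8% of all genes that fell. The difference between these shares was not tested. Summed over the list and set against panel counts, every tumor lay below every gland, with a tumor mean 0.249 times the gland mean. Esr1, the estrogen receptor, was 82.2, 12.1, 75.6, 32.4 and 63.4 CPM in the tumors against 119, 103 and 144 CPM in the glands. All tumors were below all glands, yet the difference on the CPM scale did not pass the test (-1.20, SE 0.54, adjusted p = 0.090), while relative to the panel it did (-3.42, SE 0.55, adjusted p = 3.0e-05). Prlr, the prolactin receptor, was 205, 26.0, 308, 132 and 288 CPM against 560, 805 and 660 CPM, and fell by 4.01 relative to the panel (adjusted p = 6.1e-04). Erbb2, the receptor tyrosine kinase HER2, was the 1 gene of the list that rose (1.12, SE 0.26, adjusted p = 0.0023), and it too fell relative to the panel (-0.93, adjusted p = 0.012).

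**Figure D3:**
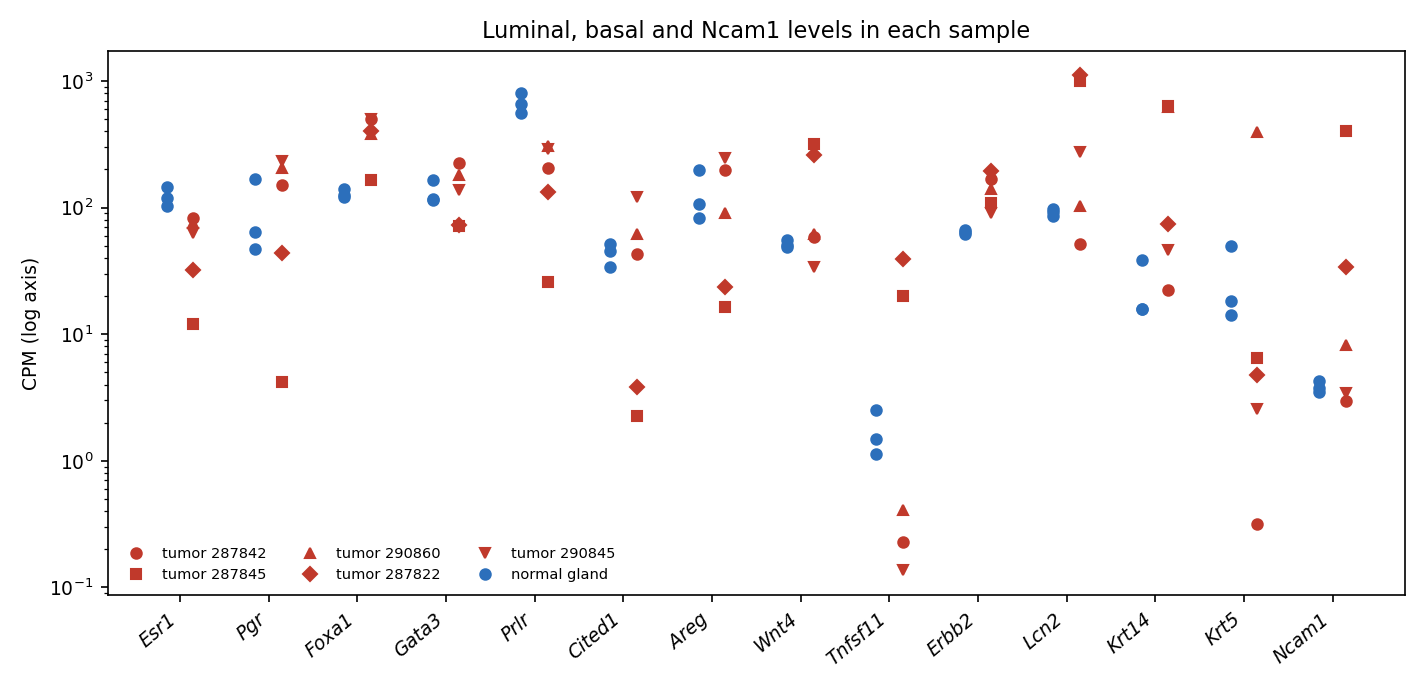
Level (CPM, log axis) of hormone-sensing, other luminal and basal genes and Ncam1 in each P/Rbf tumor (red, 1 symbol per tumor) and each gland (blue), 1 point per sample. Esr1, Pgr and Cited1 are lowest in tumors 287845 and 287822 (Pgr 4.16 and 43.9 CPM, 150 to 233 CPM in the other 3), where Wnt4 is highest (316 and 259 CPM, 33.9 to 61.3 CPM in the other 3).

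The tumors differed widely among themselves in this list. Pgr, the progesterone receptor, was 150, 4.16, 205, 43.9 and 233 CPM in the tumors and 47.2, 167 and 63.6 CPM in the glands (0.46, SE 1.31, adjusted p = 0.80). Tumors 287845 and 287822 had the lowest Pgr, the lowest Esr1 and, at 2.24 and 3.84 CPM against 42.7 to 120.9 CPM in the other 3, the lowest Cited1, a cofactor of the estrogen receptor. The same tumors were lowest for Areg, an EGF receptor ligand that estrogen induces, at 16.3 and 23.6 CPM. They were highest for Wnt4 and for Tnfsf11 (RANKL), both known as targets of progesterone, the latter at 19.9 and 39.4 CPM against 0.136 to 0.405 CPM in the other 3 tumors. Foxa1, the pioneer factor of the estrogen receptor, was 503, 166, 381, 401 and 500 CPM against 139, 126 and 122 CPM, above the glands in all 5 tumors (1.59, adjusted p = 0.081). These tumors were named after their values were seen, so no test was made between them and the rest.

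Single genes of other epithelial lists passed the test. Among 9 luminal progenitor genes 3 rose and 1 fell, beside 17.4% and 20.3% of all genes. Ehf, an ETS factor of epithelium, was 79.7, 232, 140, 822 and 125 CPM against 31.1, 35.05 and 36.2 CPM (3.04, SE 0.76, adjusted p = 0.0046). Sox10, a factor of progenitor and neural crest cells, was 0.201, 1.89, 0, 0.0790 and 0.0681 CPM against 22.0, 27.4 and 27.1 CPM (-5.85, adjusted p = 9.6e-04), and gland nerves could hold some of the Sox10 RNA, whose part was not tested. Itga2 (2.73) and Lcn2 (2.46) lost their calls with any gland left out (adjusted p 0.060 to 0.12), which leaves 1 gene that rose, and Lcn2 also without tumor 287845 or 287822 (adjusted p = 0.085 and 0.092). The list's median of 0.30 turned to -1.24 under limma-voom and to -0.98 without tumor 287822, and without tumor 290845 Kit, the stem cell factor receptor, also fell.

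Basal genes showed no common direction, with 1 of 9 up, 1 down and 7 not called, no larger shares than the 17.4% and 20.3% of all genes. Oxtr, the oxytocin receptor of myoepithelium, fell to 0.0288 to 1.14 CPM from 31.9 to 147 CPM (-7.70, adjusted p = 4.6e-05). Krt14 was 22.2, 633, 625, 74.5 and 46.5 CPM against 38.9, 15.7 and 15.9 CPM, and its rise (3.58, SE 1.284, adjusted p = 0.037) was lost without tumor 287845 or 290860 or any gland (adjusted p 0.065 to 0.12). Krt5, its usual partner, was 398 CPM in tumor 290860 and 0.316 to 6.43 CPM in the other 4, under the 14.0 to 50.03 CPM of the glands. Of 9 contractile genes 3 fell and 1 rose, beside 20.3% and 17.4% of all genes. Among those that fell was Synpo2 by 6.21 (adjusted p = 4.5e-05), and Smtn rose by 1.33 (adjusted p = 0.013). Smooth muscle of vessels expresses these genes as well, and its part and any part of body wall muscle were not told apart. Of 8 tested milk genes 3 fell and 5 were not called, beside 20.3% of all genes that fell. Btn1a1, the butyrophilin of the milk fat globule, went from 13.8 to 34.2 CPM in the glands to 0.0253 to 0.374 CPM in the tumors (-7.26, adjusted p = 6.8e-05). Csn3 (kappa-casein) was 170, 2.93, 19.0, 0.316 and 412 CPM against 73.3, 114 and 98.2 CPM and did not pass the test (adjusted p = 0.88). Wap was listed at 0 in every tumor and gland and was not tested.

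Genes of DNA replication rose as a block. All 31 rose, against 17.4% of all genes, with a median log2 fold change of 2.73, and all 31 stayed called with any tumor or gland left out. Promoter sequences are shown for the 2 members of each of the replication and mitosis lists with the smallest adjusted p among those whose window holds an E2F or CHR word. They show which of these words stand near the start of the gene, as given by RefSeq on GRCm38.p6. Each runs 5' to 3' from 250 bases before to 30 bases after an annotated start, on the minus strand. Capitals mark E2F words (TTTGGCGC, TTTGCCGC, TTTCGCGC, TTTCCCGC), the CHR word TTTGAA and the CCAAT word, on either strand. TTCAAA and ATTGG are the reverse complements of the last 2. Mcm6, a subunit of the replicative helicase (chr1:128359676-128359955), and Dnmt1, the DNA methyltransferase that copies methylation at the fork (chr9:20959859-20960138, 1 of its 3 windows), are replication genes. Kif23, a kinesin of the dividing cell's midzone (chr9:61946770-61947049), and Anln, a scaffold of the contractile ring (chr9:22389177-22389456), are mitosis genes.
Mcm6: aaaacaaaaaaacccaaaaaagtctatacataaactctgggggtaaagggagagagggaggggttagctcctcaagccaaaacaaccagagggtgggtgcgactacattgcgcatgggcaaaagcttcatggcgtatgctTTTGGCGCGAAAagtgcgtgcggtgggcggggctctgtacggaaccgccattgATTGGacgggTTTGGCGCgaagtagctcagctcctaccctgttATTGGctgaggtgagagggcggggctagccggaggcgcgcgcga
Dnmt1: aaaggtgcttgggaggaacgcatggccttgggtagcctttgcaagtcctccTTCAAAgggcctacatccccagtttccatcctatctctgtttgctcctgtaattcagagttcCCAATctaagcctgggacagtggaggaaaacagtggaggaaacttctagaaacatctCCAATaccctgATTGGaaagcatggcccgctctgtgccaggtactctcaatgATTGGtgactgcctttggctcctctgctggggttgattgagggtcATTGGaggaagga
Kif23: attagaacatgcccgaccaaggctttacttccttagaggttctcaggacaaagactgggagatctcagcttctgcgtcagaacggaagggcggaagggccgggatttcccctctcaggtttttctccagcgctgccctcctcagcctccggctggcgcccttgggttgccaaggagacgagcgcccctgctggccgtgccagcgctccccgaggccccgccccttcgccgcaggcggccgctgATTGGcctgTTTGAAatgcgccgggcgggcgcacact
Anln: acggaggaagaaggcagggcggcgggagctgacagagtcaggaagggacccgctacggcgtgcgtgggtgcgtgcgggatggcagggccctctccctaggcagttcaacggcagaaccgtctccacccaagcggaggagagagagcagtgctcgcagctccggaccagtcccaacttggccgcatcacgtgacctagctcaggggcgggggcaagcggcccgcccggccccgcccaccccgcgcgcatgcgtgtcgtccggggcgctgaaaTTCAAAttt

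The Mcm6 window holds 3 E2F words, of which a pair overlap, and 2 CCAAT words, and no CHR word. The CHR word begins at base 3 from the annotated start in Kif23, at base 22 in Anln and at base -199 in Dnmt1. The Dnmt1 window shown is the first of its 3 to hold an E2F or CHR word. Which start of Dnmt1 these tissues use was not tested. An E2F word was found in 13 of 28 windows of the replication list (46.4%, 24 of 31 genes matched) and in 2.26% of the windows of all 27025 genes. The CHR word was found in 19 of 26 windows of the mitosis list (73.1%, 25 of 29 genes matched) against 17.9% of all windows, and in 14.3% of the replication windows. CCAAT was in 76.9% of mitosis and 67.9% of replication windows against 37.4% of all. The fat and muscle windows (18 and 19) held no E2F word and no DR1 repeat, to which PPAR proteins are known to bind, and both are also rare in all windows (2.26% and 0.0396%). These are matches of letters in 300 bases and not measured binding.

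Mcm6 was 249, 324, 297, 382 and 383 CPM in the tumors against 61.1, 45.1 and 54.1 CPM in the glands (2.62, SE 0.21, adjusted p = 1.8e-07). Dnmt1 was 366, 491, 328, 399 and 447 CPM against 60.7, 69.3 and 54.3 CPM (2.73, SE 0.26, adjusted p = 6.9e-07). For both genes the tumors lay within a narrow band well above the glands. Pole, the catalytic subunit of the leading strand polymerase, was 89.4, 118, 118, 124 and 123 CPM against 8.64, 7.79 and 7.52 CPM (3.84, SE 0.22, adjusted p = 2.3e-08), and Orc1, which marks origins, rose by 4.45 (adjusted p = 2.7e-06). Pcna, the sliding clamp, rose by 2.25 (adjusted p = 4.0e-06). The smallest rises were Gins4, a helicase cofactor, by 0.80 (adjusted p = 0.0090) and Ung, which removes uracil from DNA, by 1.22 (adjusted p = 0.012).

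Relative to the epithelial panel the replication genes split. Of 31 genes 12 rose, against 2.5% of all genes, 2 fell and 17 did not differ by the test, with a median of 0.67. Those that rose were Orc1 (2.37, adjusted p = 2.5e-04), Rrm2 (2.14), Mcm10 (1.79), Pole (1.78), Tyms, Cdc6, Cdc45, Mcm4, Mcm5, Rfc5, Tk1 and Uhrf1, which include origin licensing and helicase genes, a DNA polymerase, a clamp loader subunit, enzymes of nucleotide synthesis and a reader of hemimethylated DNA. Mcm6 (0.54, adjusted p = 0.12), Dnmt1 (0.68, adjusted p = 0.087) and Pcna (0.20, adjusted p = 0.59) did not differ, and Gins4 (-1.26) and Ung (-0.96) fell. The fall of Ung was lost without gland 330154 or 330156 (adjusted p = 0.056 and 0.11), and the rise of Rfc5 without tumor 287845 or 287822 or any gland (adjusted p 0.056 to 0.10). Without gland 330155 the rises of Cdc45, Tyms and Mcm4 were lost too (adjusted p up to 0.06), so that 8 genes rose. That of Mcm4 was also lost without gland 330154 (adjusted p = 0.052). With the geometric mean of the panel 17 genes rose. Summed over the list, replication genes had 61.0, 139.9, 84.2, 132.5 and 76.6 counts per 100 panel counts in the tumors and 62.9, 54.7 and 69.1 in the glands, so tumor 287842 lay among the glands.

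Genes of mitosis rose by more, and stayed high on the epithelial scale. Of 29 genes 28 rose, with a median of 4.39, and 1 fell, beside 17.4% and 20.3% of all genes. Mki67, the Ki-67 antigen of cycling cells, was 386, 1011, 442, 1620 and 540 CPM in the tumors against 30.2, 34.4 and 29.4 CPM in the glands (4.67, SE 0.55, adjusted p = 6.8e-06). Cenpf, a kinetochore protein, rose by 5.37 (adjusted p = 4.4e-07), Top2a, which untangles chromosomes, by 4.82 (adjusted p = 3.2e-07) and Foxm1, a factor that drives mitotic genes, by 4.75 (adjusted p = 3.8e-06). Kif23 was 59.4, 97.5, 86.9, 131 and 88.1 CPM against 5.24, 6.81 and 6.16 CPM (3.93, SE 0.28, adjusted p = 7.1e-08), and Anln was 248, 390, 217, 324 and 231 CPM against 10.8, 9.88 and 13.1 CPM (4.65, SE 0.35, adjusted p = 8.2e-08). The lowest tumor was several times the highest gland in each of these. Pttg1 (securin), which holds back the separation of chromatids, went the other way, at 24.3, 24.1, 27.7, 20.3 and 22.4 CPM against 46.4, 43.2 and 49.2 CPM (-0.96, SE 0.21, adjusted p = 0.0016).

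On the panel scale the same count held, 28 genes up and 1 down, with a median of 2.38, against 2.5% and 73.8% of all genes. Mki67 rose by 2.73 (SE 0.66, adjusted p = 0.0012), Cenpf by 3.41 (adjusted p = 3.9e-05) and Anln by 2.62 (adjusted p = 5.8e-05) relative to the panel. The summed mitosis list had 57.7, 186.5, 95.1, 219.7 and 69.9 counts per 100 panel counts in the tumors, a mean of 125.8 ± 72.8 (SD, n = 5), and 28.2, 23.5 and 28.7 in the glands, a mean of 26.8 ± 2.91 (SD, n = 3). Every tumor was above every gland. Tumors 287845 and 287822, named above for their low Esr1 and Pgr, had the highest sums. They also had the lowest panel levels, 3164 and 3422 CPM against 4195 to 5288 CPM in the others. A low panel level raises a sum on this scale, and its part was not tested.

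**Figure D4:**
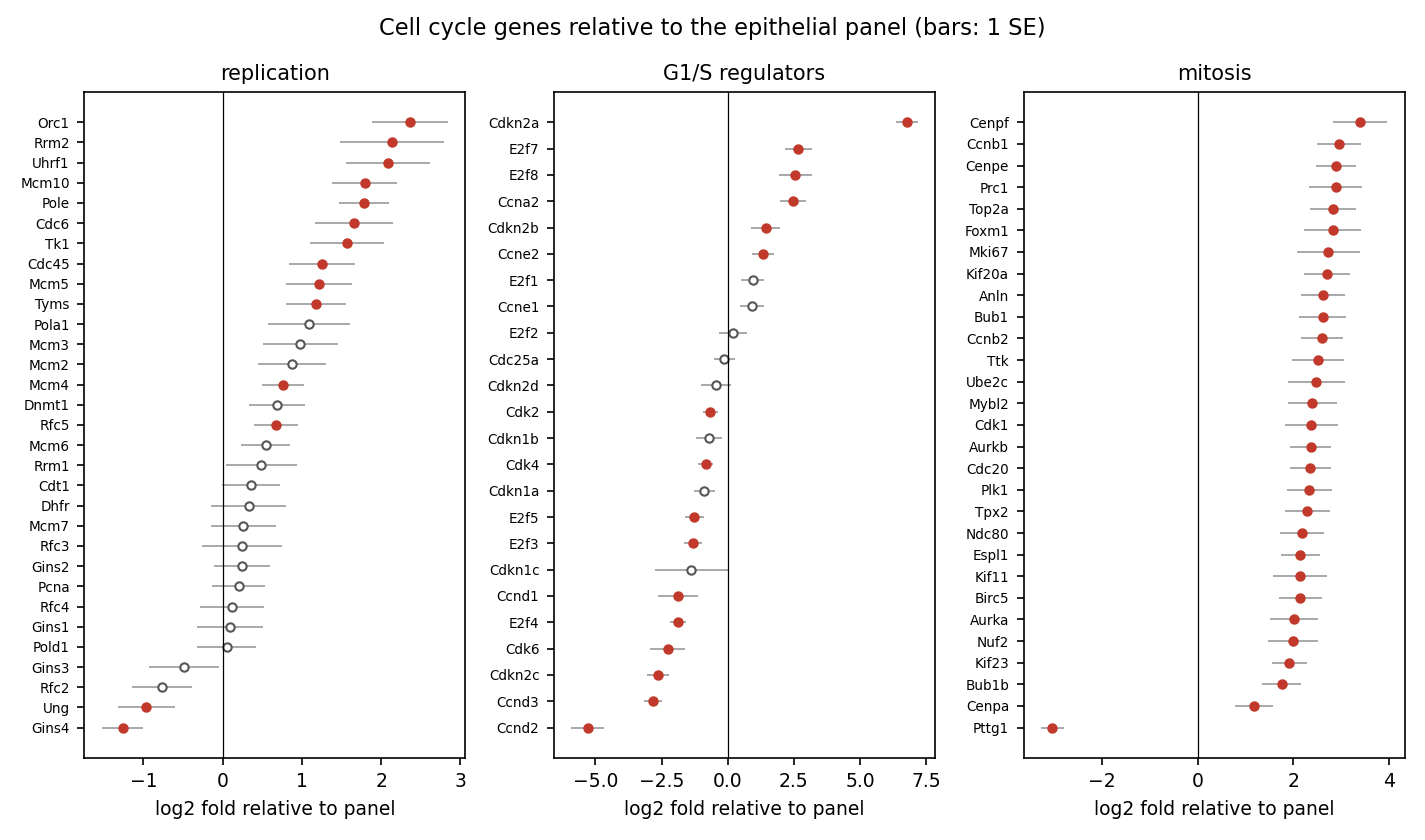
Log2 fold change of each replication, G1/S and mitosis gene in P/Rbf tumors against glands relative to the epithelial panel, 1 point per gene with a bar of 1 SE, where filled points passed edgeR's test at an adjusted p of at most 0.05 and open points did not. The 28 mitosis genes that rose lie right of 0 and Pttg1 left of it (-3.04), replication genes spread over both sides (median 0.67), and Cdkn2a stands apart among the regulators (6.77).

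Among 24 regulators of the G1 to S step 16 rose, 1 fell and 7 were not called, with a median of 1.36. Of all genes 17.4% rose and 20.3% fell. Cdkn2a, which encodes p16 and p19Arf, had the largest rise of the list: 244, 167, 158, 160 and 371 CPM against 0.430, 0.491 and 0.440 CPM (8.91, SE 0.55, adjusted p = 2.7e-08), and 6.77 relative to the panel (adjusted p = 4.1e-09). The E2F factors that repress transcription late in S phase rose most among the E2Fs, with E2f7 at 4.61 (adjusted p = 1.1e-06) and E2f8 at 4.51 (adjusted p = 1.1e-05), and E2f1, an activator, rose by 2.95 (adjusted p = 1.9e-06). Cyclins E and A rose, namely Ccne1 by 2.94, Ccne2 by 3.44 and Ccna2 by 4.47, with adjusted p from 3.8e-07 to 2.8e-05. The D cyclins, which act on pRb itself, did not. Ccnd2 was 13.1, 15.0, 58.7, 11.2 and 16.6 CPM against 199, 190 and 237 CPM (-3.19, SE 0.54, adjusted p = 2.3e-04), the 1 fall of the list. A further gene fell when tumor 287822 (Cdkn2c) or 290845 (Ccnd3) was left out. Ccnd1 was 293, 314, 58.7, 39.3 and 41.5 CPM against 131, 131 and 144 CPM, with tumors 287842 and 287845 above and the other 3 below the glands (0.14, adjusted p = 0.89). Cdk4, their partner, rose by 1.31 (adjusted p = 0.0061). Relative to the panel 6 genes of the list rose (Cdkn2a, Cdkn2b, E2f7, E2f8, Ccna2 and Ccne2), against 2.5% of all genes, and 10 of 24 fell, against 73.8%. Cdk4 fell by 0.84 (adjusted p = 0.0099) and Ccnd1 by 1.88 (adjusted p = 0.030). The call of Ccnd1 was lost without tumor 290860, 287822 or 290845 or gland 330154 or 330156 (adjusted p 0.057 to 0.069), and that of Cdkn2b without tumor 287842 or gland 330154 or 330155 (adjusted p 0.074 to 0.095).

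The p53 targets did not move as one. Of 17 genes 6 fell, 3 rose and 8 were not called, beside 20.3% of all genes that fell and 17.4% that rose, with a median of -0.16 that turned to 0.10 with library sizes alone or without gland 330155. Ccng1 (cyclin G1) was 99.98, 62.0, 63.6, 62.6 and 44.9 CPM against 640, 394 and 576 CPM (-3.01, SE 0.24, adjusted p = 1.3e-07). Phlda3, an inhibitor of Akt, fell by 3.20 (adjusted p = 5.2e-05) and Eda2r, a death receptor, fell by 4.10 (adjusted p = 3.3e-05). In these genes every tumor lay below every gland. Mdm2, the ligase that destroys p53, was 80.9, 67.8, 67.9, 48.9 and 65.2 CPM against 60.9, 63.2 and 59.5 CPM (0.11, adjusted p = 0.75). Cdkn1a (p21) was 86.9, 182, 138, 90.7 and 217 CPM against 59.8, 59.8 and 66.7 CPM (1.20, adjusted p = 0.018), a call lost without gland 330154 or 330156 (adjusted p = 0.062 and 0.051), and Pmaip1 (Noxa) rose by 2.83 (adjusted p = 0.0084). Tnfrsf10b (1.13) lost its call without tumor 287845 or 290845 or gland 330154 or 330156, Btg2 (-1.47) without gland 330155, and Sesn2 (-0.91) without any sample but tumor 287842 (adjusted p up to 0.13). Without gland 330154 or 330156, 1 gene of the list rose. Relative to the panel 12 of the 17 fell and none rose, a share close to the 73.8% of all genes that fell.

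Stromal genes moved unevenly. Of 16 fibroblast and matrix genes 5 fell and none rose, beside 20.3% and 17.4% of all genes. Dpt (dermatopontin) was 0.978, 7.76, 0.506, 2.63 and 0.443 CPM against 219, 211 and 303 CPM (-6.63, adjusted p = 8.5e-04) and Pi16, a marker of fibroblasts around vessels, fell by 5.07. The chief fibrillar collagen gene Col1a1 was 322, 1390, 1005, 492 and 430 CPM against 342, 179 and 289 CPM, overlapping, and did not pass the test (1.43, adjusted p = 0.12). The falls of Lum and Fap were lost without tumor 287842, 290860 or 290845 or gland 330154 or 330156 (adjusted p up to 0.13), which leaves 3 genes that fell, close to the share of all genes. That of Lum was also lost without tumor 287822, and that of Fap without tumor 287845 or gland 330155. Of 9 mesenchymal genes 5 fell, with Zeb1 at -2.74 (adjusted p = 3.7e-05) and Vim (vimentin) at -1.62 (adjusted p = 0.0027), and 2 rose, Fn1 and Snai1. Fn1 (fibronectin) was 3947, 766, 826, 504 and 4703 CPM against 244, 92.0 and 165 CPM (3.69, SE 0.97, adjusted p = 0.0066), highest in tumors 287842 and 290845. Snai1 (2.77) lost its call without tumor 287845 or any gland (adjusted p 0.064 to 0.085).

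Macrophage genes moved in both directions. Of 12 genes 4 rose and 1 fell, beside 17.4% and 20.3% of all genes, with a median of 0.66. C1qa, a complement gene of resident macrophages, was 68.0, 122, 81.9, 134 and 63.4 CPM against 82.1, 54.4 and 60.1 CPM (0.52, adjusted p = 0.43). Spp1 (osteopontin), which epithelium also makes, was 54.0, 79.6, 223, 167 and 108 CPM against 3.71, 7.72 and 4.98 CPM (4.53, SE 0.97, adjusted p = 0.0016). Spp1 rose relative to the panel too, by 2.51. On the TMM scale Cd163, a scavenger receptor of tissue macrophages, fell by 3.88 (adjusted p = 0.0038). The rises of Cd68 and Fcgr1 were lost with any gland left out (adjusted p 0.053 to 0.14) or without tumor 287845 or 287822, which leaves 2 genes that rose, close to the share of all genes, and that of Fcgr1 also without tumor 290845.

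The largest single changes, among genes with no overlap between tumors and glands and a mean of at least 10 CPM in the higher group, were muscle, liver-type and fat genes on the falling side. The 12 largest falls held Pvalb, Mybpc1, Ckm, Tnnc2, Ckmt2, Atp2a1, Myh2, Mstn and Apobec2 of muscle, Cox8b of muscle and brown fat, and Ces1f and Cyp2e1, enzymes of fat and liver. Mybpc1, a myosin binding protein, had no count in any tumor and 910, 292 and 740 CPM in the glands, which is at least 7387-fold lower (adjusted p = 7.5e-04). Ces1f was likewise at 0 in all tumors and at 155, 110 and 180 CPM in the glands, at least 1693-fold lower (adjusted p = 3.9e-05).

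The largest rises were mostly uneven between tumors. Muc5b, a gel-forming mucin, was 1.61, 51.9, 1.80, 4137 and 85.7 CPM against 0, 0.164 and 0 CPM (adjusted p = 0.0042), so that tumor 287822 held nearly all of it. Mmp10, a matrix protease, was 99.1, 6.65, 11.9, 0.500 and 123 CPM and Atp12a, a proton pump, 1.15, 391, 0.177, 51.0 and 0.136 CPM, with no gland above 0.0391 CPM for either. Vgll1, a cofactor of TEAD factors, was 5.29, 1.92, 36.3, 4.32 and 62.2 CPM against 0 in every gland, at least 208.3-fold higher (adjusted p = 3.6e-04). D130009I18Rik, an uncharacterised transcript, stood out for its evenness at 39.0, 25.6, 14.6, 11.6 and 23.1 CPM against 0 in every gland, at least 215.5-fold higher (adjusted p = 1.2e-06). The others were Gm49394, Gm37752, 2210407C18Rik, Gm37087, Clca3b, Dynap and Amtn. Gm49394 overlaps Igf2 on the same strand and Gm37087 overlaps Sprr2a2 on the opposite one, and since the strand used in counting is not given in the sources used here, their reads cannot be told from those of the neighbours. The calls of Gm49394, Dynap and Amtn were lost with 1 or more of the glands left out (adjusted p up to 0.075).

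**Figure D5:**
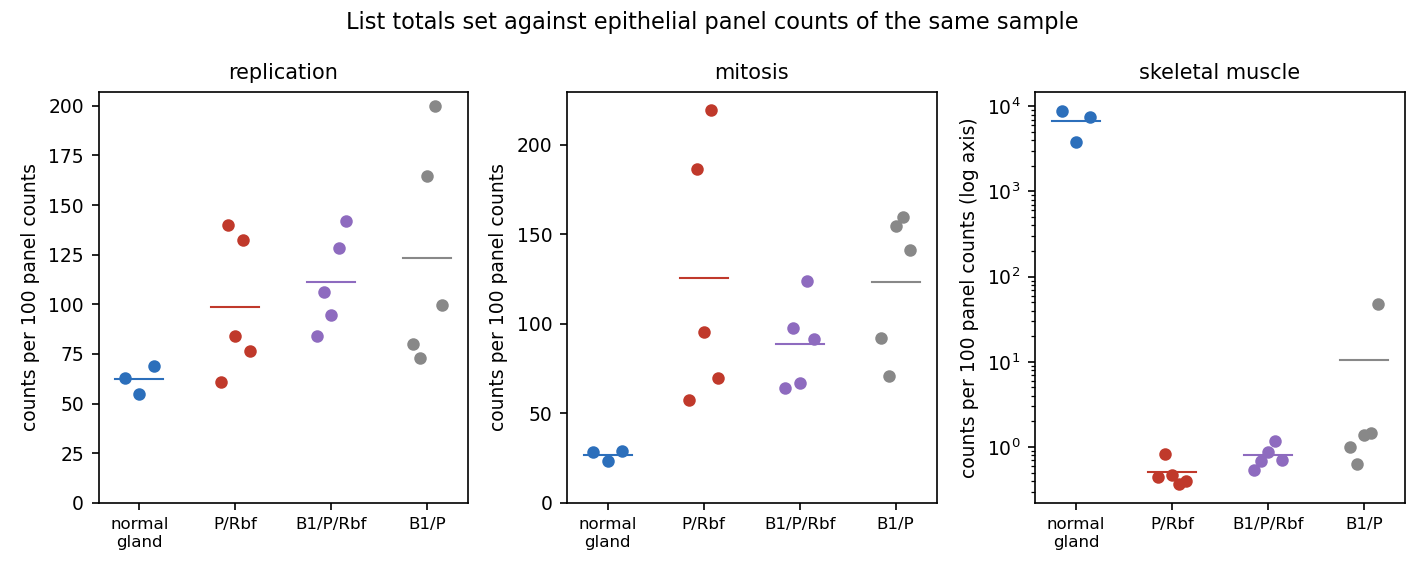
Counts of the replication, mitosis and skeletal muscle lists (the last on a log axis) per 100 counts of the epithelial panel in each sample of the 3 tumor groups and the glands, 1 point per sample, with lines at the group means. Mitosis reaches 57.7 to 219.7 in P/Rbf tumors, 64.0 to 124 in B1/P/Rbf and 70.6 to 160 in B1/P tumors, all above the glands at 23.5 to 28.7.

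P/Rbf tumors were also tested directly against the other tumors. Against B1/P/Rbf tumors, which also carry T121, 12 genes (0.0625%) were higher and 42 (0.219%) lower in P/Rbf tumors, and without single tumors these counts ran from 2 (without tumor 287845) to 36 higher (without B1/P/Rbf tumor 209490) and from 6 (without tumor 287845 or 287822) to 95 lower (without 209490). DESeq2 called 427 higher and 587 lower, and a fit of these tumors alone called none, with 1372 and 1419 genes at an unadjusted p under 0.05. By edgeR no member of the replication, mitosis, adipocyte or muscle list differed. At an unadjusted p under 0.05 in the fit of all groups, where 1536 of all 19186 genes were higher and 1547 lower, 7 of 29 mitosis genes were higher, 9 of 20 adipocyte genes were lower, and 1 replication gene was higher and 3 lower, while DESeq2 called 4 adipocyte genes, 1 replication gene and no mitosis gene. Of the muscle genes 1 of 21 was lower at that p, and DESeq2 called none. Without B1/P/Rbf tumor 208863 edgeR called 2 adipocyte genes lower. Brca1 itself averaged 79.0 ± 32.7 CPM (SD, n = 5) over the P/Rbf and 29.8 ± 8.97 over the B1/P/Rbf group, a difference that did not pass the test (1.41, SE 0.36, adjusted p = 0.090). Against B1/P tumors, which lack T121, 1618 genes (8.43%) were higher and 2066 (10.8%) lower, so that the cell cycle lists could be set against that background. Replication genes were higher in 22 of 31 and mitosis genes in 16 of 29, none lower in either, with medians of 0.92 and 0.97 beside -0.05 for all genes. A fit of both groups alone called 16 and 10 of them, with 728 of all genes higher and 1035 lower. These are TMM values, and the epithelial panel was itself higher, at 4218 ± 940.0 CPM over the P/Rbf and 2066 ± 482 over the B1/P group, with 6 of its 14 genes called. Per 100 panel counts the replication list had 98.8 ± 35.2 counts in P/Rbf and 123.5 ± 55.9 in B1/P tumors, and the mitosis list 125.8 ± 72.8 and 123.6 ± 39.98, so that on this scale both groups overlapped. That difference was not tested. Mcm6 averaged 327 ± 57.4 CPM over the P/Rbf and 174 ± 27.9 over the B1/P group (0.91, SE 0.17, adjusted p = 0.0020), while Mki67 was 800 ± 520 and 402 ± 155 CPM and did not pass the test (0.99, SE 0.38, adjusted p = 0.076).

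Hormone-sensing luminal genes differed between P/Rbf and B1/P tumors on the TMM scale too. Of 14 such genes 7 were higher in P/Rbf tumors and none lower, beside 8.43% and 10.8% of all genes. Without B1/P tumor 225068 or 246361 or P/Rbf tumor 287822, 4 were higher. The summed list was 1830 ± 459 CPM over the P/Rbf and 652 ± 239 over the B1/P group. Per 100 panel counts it was 33.7 to 51.8 in P/Rbf and 18.3 to 50.6 in B1/P tumors, which overlap. Esr1 averaged 53.1 ± 29.9 CPM over the P/Rbf group, 10.6 ± 6.84 over the B1/P group and 122 ± 20.6 CPM (SD, n = 3) in the glands, higher by 2.33 (SE 0.50, adjusted p = 0.0051) than in B1/P tumors. Foxa1 was higher by 2.89 (SE 0.61, adjusted p = 0.0044) and Krt18 by 2.74 (SE 0.44, adjusted p = 9.5e-04). Of 9 luminal progenitor genes none were higher and 2 were lower in P/Rbf tumors, with a median of -0.71. Sox10 averaged 0.448 ± 0.810 CPM over the P/Rbf against 427 ± 164 over the B1/P group (-9.91, SE 1.34, adjusted p = 3.1e-04), with the glands between at 25.5 ± 3.01 CPM. Ccnd2 was lower by 3.66 (SE 0.52, adjusted p = 4.7e-04) and Ccnd1 by 2.17 (SE 0.66, adjusted p = 0.030). D130009I18Rik was at 0 in all B1/P tumors and at 19.4 ± 4.71 CPM in B1/P/Rbf tumors, so that its RNA was found in the tumors that carry T121 and in no other sample.

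Of 20 adipocyte genes 1 was higher and 2 lower in P/Rbf than in B1/P tumors, close to the 8.43% and 10.8% of all genes, and 1 to 3 in each direction with any 1 tumor left out. The median of the list was lower in P/Rbf tumors, with log2 differences of -1.44 from B1/P and -2.16 from B1/P/Rbf tumors. Per 100 panel counts the adipocyte list had 1.61 to 6.16 counts in P/Rbf, 4.90 to 12.9 in B1/P and 3.98 to 11.4 in B1/P/Rbf tumors, ranges that overlap. In the muscle list 14 of 21 were lower, but B1/P tumor 248662 had 47.4 muscle counts per 100 panel counts where the other B1/P tumors had 0.638 to 1.45, and without it 4 were lower and 1 higher. P/Rbf tumors had 0.367 to 0.838, and the glands 3848 to 8890.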

How the data were processed

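RNA from 15 tumors and 3 glands was sequenced as stranded, paired-end mRNA libraries. The authors trimmed the reads with cutadapt 1.18 and deposited the expected counts per gene that RSEM 1.3.0 gave, not normalized. The study's methods name a human reference, while the identifiers are those of the mouse annotation GENCODE M21, which matched 55450 of 55450. Of the values 5.61% were not whole, and counts were rounded. Groups came from the sample titles. edgeR 4.0.16 (R 4.3.3) was run with TMM scaling, a filter at a minimum count of 10 over 4 groups (19186 genes), a quasi-likelihood fit of all 18 samples with group as the only term, and Benjamini-Hochberg adjustment. The study's own model, limma-voom with quantile normalization, and DESeq2 1.42.0 were alternatives. Scripts were tested on simulated counts. Counts per 100 panel counts and CPM were computed from the deposited counts. A group with at most 3 counts in every sample gives a bound in place of a fold. The members and the 25 gene lists (328 genes, 327 tested) were chosen with earlier results of these data known. Genes named outside the lists are the 12 largest rises and 12 largest falls among called genes with no overlap and at least 10 CPM. Chi-square values per degree of freedom of 27.2 to 100.4 between gland pairs and 228.5 to 565 between P/Rbf tumor pairs showed no duplicated library. Mice were separate, so the tests measure the spread between mice within each group. Promoter windows of 300 bases came from RefSeq (GRCm38.p6). Counting error only is covered by the bounds, and reads carry no molecular identifiers. Values of some genes are not reported here.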

Additional observations from a re-analysis of the deposited data

Results flagged for a closer look

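Each list total, library measure and named gene was checked for a P/Rbf tumor that stood far from the other 4 (Dixon's criterion for 5 samples). Chance sets apart about 1 in 20 such groups where values are normally distributed, which CPM values need not be. A gene with counts in a single tumor always stands apart. The numbers that stood apart were therefore not set against chance. Of 29 list totals and library measures 3 stood apart, and of 160 genes 29 did. Tumor 287822 had the highest sum of endothelial genes (750.4 CPM) and of B cell and lymph node genes (16.4 CPM), along with the vessel genes Cdh5 (86.3 CPM) and Cldn5 (9.95 CPM), the highest Muc5b (4137 CPM), Ehf (822 CPM), Prss8 (86.6 CPM) and Myh2 (0.0790 CPM). Tumor 290860 had the highest mitochondrial share (3.75%) and the highest Krt5 (398 CPM) and Ccnd2 (58.7 CPM).

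Tumor 287845 stood apart for more genes. It was highest for Adipoq (1.64 CPM), Atp12a (391 CPM), Cyp2e1 (0.252 CPM), Dynap (225 CPM), Ncam1 (401 CPM), Oxtr (1.14 CPM), Snai1 (58.9 CPM) and Sox10 (1.89 CPM), and lowest for the junction genes Cldn3 (41.3 CPM) and Marveld2 (20.7 CPM). Both junction genes belong to the epithelial panel. Tumor 287842 was highest for Cdkn2b (74.7 CPM), Elovl6 (144 CPM), Itga2 (121.5 CPM), Mb (9.92 CPM), Apobec2 (0.0288 CPM) and Pvalb (0.0288 CPM), and lowest for Pole (89.4 CPM). Tumor 290845 was highest for 2210407C18Rik (578 CPM), Amtn (320.4 CPM), Clca3b (613 CPM) and Kit (87.3 CPM). Values under 0.1 CPM rest on 3 counts or fewer.

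The direct tests between tumor groups found differences in both directions. P/Rbf tumors differed from B1/P/Rbf tumors in 12 genes that were higher and 42 that were lower, and from B1/P tumors in 1618 genes that were higher and 2066 that were lower.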

How the results depend on the processing

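Counts of all genes were within 1.5 times the reported ones in 38 of 52 comparisons with another setting. For P/Rbf tumors against glands, the study's filter, which keeps the 4551 genes that reach a log2 CPM of 6 in 6 samples, gave 822 genes higher and 847 lower, as fewer genes were tested. With 1 sample left out the counts were 2129 to 3435 higher and 3026 to 3880 lower, and relative to the epithelial panel 319 to 514 higher and 13373 to 14326 lower. Against B1/P/Rbf tumors DESeq2 gave 427 higher and 587 lower, the study's filter 0 and 3 (349 and 308 at an unadjusted p under 0.05), limma-voom 5 and 21, and a fit of the groups compared alone 0 and 0; with 1 tumor left out the counts were 2 to 36 and 6 to 95. Against B1/P tumors the study's filter gave 434 and 432 and the groups alone 728 and 1035, and leaving out 1 tumor 1225 to 1753 and 1537 to 2184. The cause was not tested except where fewer genes were tested. On the TMM scale list medians changed sign for the hormone-sensing, luminal progenitor and p53 target lists as given above, and at the study's filter for the brown fat list (1.85) and the mesenchymal list (0.62), of which few genes were left. Relative to the panel the luminal keratin median went from -0.18 to 0.0093 with the geometric mean of the panel. All replication genes tested rose at every setting, as did all mitosis genes tested but Pttg1, and the mitosis count relative to the panel was 28 at each. Against B1/P tumors, a fit of both groups alone called 4 hormone-sensing genes higher. Of named genes no call turned to the opposite direction; among 1816 values under other settings 42 lost a call and 28 gained one, and among 2544 with a sample left out 130 lost and 15 gained one. No paired analysis was possible because the samples of different groups share no replicate numbers. Depth limits genes near 3 counts, whose folds are bounds, and 3 glands limit the precision of every comparison with them.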
